A study of Mus musculus with 8 samples.

Results

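The genes described here are 10 known transcriptional targets of WNT and beta-catenin in E14 mouse embryonic stem cells (ESCs): Axin2, Nkd1, Rnf43, Znrf3, Lef1, Tcf7, Sp5, Sp8, Cdx1 and Tnfrsf19. They were taken by symbol from the 52636 gene ids of the count files, and all 10 were found. The list was drawn up because its members moved in opposite directions between Klf4 knockout (KO) and wild-type (WT) cells, so their KO and WT levels are given as a description and no test of them is used. RNA was sequenced from 2 WT and 2 KO cultures, called biological replicates in the labels. RNA polymerase II (Pol II) HiChIP, which captures DNA contacts at polymerase-bound sites, was made from 2 cultures per genotype and is read here from 1 pooled list of anchor pairs per genotype. All cells were grown on gelatin with 15% serum. One medium text adds 10 ng/mL LIF, 1 µM PD0325901 (a MEK inhibitor) and 3 µM CHIR99021 (a GSK3 inhibitor), whereas another text gives 1000 U/mL LIF and names neither inhibitor. Both texts are attached to every WT and KO sample. The labels do not say how Klf4 was disrupted or whether the KO cells are 1 clone.

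WNT ligands bind Frizzled receptors together with LRP co-receptors and so restrain a cytoplasmic destruction complex of Axin, APC, casein kinase and GSK3. Beta-catenin then escapes degradation, enters the nucleus and joins TCF/LEF factors on target genes, several of which encode inhibitors of the pathway itself. In mouse ESCs this pathway helps to hold the naive state, and CHIR99021 switches it on downstream of the receptors by blocking GSK3.

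Start regions of Sp5, Sp8, Lef1, Axin2 and Tnfrsf19 are shown because the list differed in direction and in Pol II contacts. Of the members, 8 have at least 1 window, 16 windows in all, in the RefSeq table of build GRCm38.p6 (the sequence of mm10). Neither Cdx1 nor Znrf3 has one in the set of windows used here, which does not mean that RefSeq lists no start for them. Each line below gives the 250 bases before a start site, 5′ to 3′ on the gene's strand. Capitals mark matches on either strand to the TCF/LEF words CTTTGAT and CTTTGAA, their shared core CTTTGA, the KLF words GGGNGTGG and GGGTGGGG, and the GC box GGGCGGGG. The Sp5 stretch is chr2:70474673-70474922 (+), the Sp8 stretch chr12:118846983-118847232 (+), the Lef1 stretch chr3:131110047-131110296 (+) and the Axin2 stretch chr11:108920099-108920348 (+). The upstream start of Tnfrsf19 has chr14:61046856-61047105 (-) and its internal start chr14:61037988-61038237 (-).
Sp5: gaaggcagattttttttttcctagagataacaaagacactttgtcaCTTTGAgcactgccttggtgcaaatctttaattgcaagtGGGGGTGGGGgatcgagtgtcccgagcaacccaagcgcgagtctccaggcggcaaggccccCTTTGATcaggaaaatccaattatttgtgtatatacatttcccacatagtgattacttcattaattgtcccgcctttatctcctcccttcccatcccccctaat
Sp8: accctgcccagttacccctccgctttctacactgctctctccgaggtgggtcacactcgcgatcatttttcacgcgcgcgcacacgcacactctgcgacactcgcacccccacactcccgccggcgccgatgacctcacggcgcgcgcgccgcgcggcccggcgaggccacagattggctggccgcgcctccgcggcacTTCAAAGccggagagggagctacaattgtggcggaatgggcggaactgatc
Lef1: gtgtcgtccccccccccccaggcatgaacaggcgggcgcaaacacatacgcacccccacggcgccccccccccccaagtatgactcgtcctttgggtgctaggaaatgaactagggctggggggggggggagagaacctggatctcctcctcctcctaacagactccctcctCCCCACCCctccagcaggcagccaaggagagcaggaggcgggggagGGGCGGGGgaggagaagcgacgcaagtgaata
Axin2: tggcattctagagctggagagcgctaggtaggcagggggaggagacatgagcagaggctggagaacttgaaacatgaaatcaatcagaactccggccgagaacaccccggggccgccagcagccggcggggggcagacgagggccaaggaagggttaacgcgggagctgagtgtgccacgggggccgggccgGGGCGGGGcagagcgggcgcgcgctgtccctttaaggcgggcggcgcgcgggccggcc
Tnfrsf19 upstream start: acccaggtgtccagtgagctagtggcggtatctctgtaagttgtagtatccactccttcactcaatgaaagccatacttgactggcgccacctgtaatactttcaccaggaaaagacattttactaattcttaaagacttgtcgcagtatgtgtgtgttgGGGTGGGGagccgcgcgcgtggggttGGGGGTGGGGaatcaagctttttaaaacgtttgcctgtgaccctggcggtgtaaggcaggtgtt
Tnfrsf19 internal start: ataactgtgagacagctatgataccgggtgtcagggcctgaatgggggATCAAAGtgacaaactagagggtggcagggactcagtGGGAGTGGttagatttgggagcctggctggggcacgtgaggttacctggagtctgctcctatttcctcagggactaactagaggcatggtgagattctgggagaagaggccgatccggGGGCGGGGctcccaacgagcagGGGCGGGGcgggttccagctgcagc

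CTTTGAT stood 104 bases before the Sp5 start, and the bare core CTTTGA stood 204 bases before it. In Sp5 the 2 KLF words overlap in 1 run that begins 165 bases before the start. The reverse complement of CTTTGAA began 51 bases before the Sp8 start shown, and that of CTTTGAT began 202 bases before the internal Tnfrsf19 start. Axin2 held a GC box 58 bases before its start and neither TCF/LEF word. The Lef1 stretch held a GC box at 32 bases and a reversed KLF word at 78 bases, and 2 copies of the core lay in another of its windows. Over the whole 300-base windows, from 250 bases before to 50 after each start, CTTTGAT occurred in 3.73% and CTTTGAA in 5.14% of all 32851 windows, and CTTTGA in 16.0%. The KLF words occurred in 17.6% (GGGNGTGG) and 9.99% (GGGTGGGG) and the GC box in 17.6%. Counted by gene over all 27025 genes with windows, CTTTGAT was found in 4.29% and in 2 members, CTTTGAA in 5.93% and 1 member, and CTTTGA in 18.2% and 4 members. GGGNGTGG was found in 19.7% of genes and 6 members, GGGTGGGG in 11.3% and 4 members, and the GC box in 19.6% and 4 members. Members had more windows per gene than all genes had, so these counts by gene are not like for like. Of the 16 member windows, some of which overlap, 7 held GGGNGTGG, 6 GGGTGGGG and 6 the GC box. CTTTGAT was in 2 of the 16, CTTTGAA in 1 and CTTTGA in 4. Those with a full TCF/LEF word were Sp8, which was higher in KO, and Sp5 and Tnfrsf19, which were lower. Matches are descriptions of letters in a window, not of binding.

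The 4 RNA libraries held 8287497 to 9762190 counts assigned to genes. Log CPM correlated across genes (Pearson's r, a description) at 0.959 between the WT pair, 0.969 between the KO pair and 0.884 to 0.919 across genotypes. Counts of Klf4 itself were 2882 and 2421 in WT and 0 in each KO library. That is at least 1590-fold lower against a floor of 3 counts over both KO libraries together (0.179 CPM). Of the 5 tested Y-linked genes 4 were called lower in KO, with a median log2 fold change of -10.06. Whether the KO cells differ from WT cells in their Y chromosome was not tested. Such a difference cannot be told apart here from the loss of Klf4. Summed CPM of 8 ESC markers ran from 4590 to 5290 in WT and 5330 to 5450 in KO, with none at 0 and 1, Dppa4, called higher. Neural progenitor markers, of which 3 were tested, summed to 35.4 to 40.1 in WT and 14 to 21 in KO. Pax6 was called higher, Nes was called lower and Neurog2 was at 0 in WT. Nes made up most of the WT sum (mean 29.7 CPM in WT and 7.15 in KO), and Pax6 went the other way (0.053 and 4.83). Primitive streak markers summed to 8.71 to 14 in WT and 7.7 to 9.94 in KO, with Gsc called lower and Evx1 at 0 in KO. Primitive endoderm markers summed to 19.7 to 24.1 in WT and 40.6 to 49.6 in KO, with Gata6 and Col4a1 called higher. Col4a1 made up most of that sum (mean 13.0 CPM in WT and 36.5 in KO), and Gata4 went the other way, with 37 and 48 counts in WT and 17 and 4 in KO (log2 fold change -1.86, edgeR FDR = 0.132). Fibroblast markers summed to 6.96 to 8.39 in WT and 12.9 to 13.9 in KO, with Postn and Lum at 0 in all libraries. Thy1 carried most of that rise, with a WT mean of 4.25 CPM and a KO mean of 9.12 CPM. It was not called (FDR = 0.133 by edgeR). Col1a1 and Fbn1, also tested, had overlapping groups, and no gene of this list was called. The part of other cell types in the values below was not tested, and in bulk RNA fewer cells of a type cannot be told apart from less RNA per cell.

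The feedback inhibitors were either lower in KO or overlapped WT. Axin2 (ENSMUSG00000000142, chr11:108917828-108950783), the inducible scaffold of the destruction complex and a standard readout of WNT activity, had 30.9 and 24.5 CPM (counts per 1000000 gene counts, scaled by edgeR's TMM factors) in the WT libraries and 11.1 and 11.2 in the KO libraries B and F. Both KO libraries lay below both WT libraries, a mean 2.47-fold lower. Rnf43 (ENSMUSG00000034177, chr11:87663087-87735539) and Znrf3 (ENSMUSG00000041961, chr11:5276329-5444847) are related membrane ubiquitin ligases that clear Frizzled from the cell surface. Rnf43 was scarce, with 14 and 12 counts in WT and 9 and 1 in KO. The KO values were below the WT values, yet the distance rests on library F, since library B had 1.08 CPM against 1.31 CPM in the lower WT library. Znrf3 had 17.5 and 11.0 CPM in WT and 12.3 and 20.5 CPM in KO, and the groups overlapped. Nkd1 (ENSMUSG00000031661, chr8:88521342-88594887), which binds Dishevelled and dampens the signal, had 2.55 and 4.24 CPM in WT and 3.95 and 1.42 CPM in KO. Its groups overlapped too, and for Nkd1 and Znrf3 the sign of the fold change reverses when 1 library is left out. Of the 4 feedback genes, KO thus lay below WT for Axin2 and Rnf43 and overlapped it for Znrf3 and Nkd1.

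Both TCF/LEF factors in the list are DNA-binding partners of beta-catenin, and they differed from each other. Lef1 (ENSMUSG00000027985, chr3:131110297-131224357) had 7 and 9 counts in WT and 302 and 145 in KO. In CPM these were 0.744 and 0.979 against 36.2 and 17.2. Both KO libraries lay far above both WT libraries, a mean 31.0-fold higher, and the fitted log2 fold change was 4.93. WT Lef1 stood at the 2.4 percentile of tested genes by mean CPM. Tcf7 (ENSMUSG00000000782, chr11:52246527-52283383) had 47.8 and 45.7 CPM in WT and 65.4 and 45.8 CPM in KO. KO library F matched the WT level, the groups overlapped and only library B was higher.

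Sp5 and Sp8 are related zinc-finger factors of the SP family, both described as WNT-responsive, that bind GC-rich DNA as KLF proteins do. Sp5 (ENSMUSG00000075304, chr2:70474923-70477726) had 111 and 177 counts in WT and 10 and 4 in KO, or 11.8 and 19.3 CPM against 1.20 and 0.474 CPM. Every KO value was below every WT value, a mean 18.6-fold lower. Sp8 (ENSMUSG00000048562, chr12:118846288-118852578) had 5 and 2 counts in WT and 46 and 19 in KO, or 0.531 and 0.218 CPM against 5.51 and 2.25 CPM. Every KO value was above every WT value, a mean 10.4-fold higher. The 2 relatives thus lay on opposite sides, with log2 fold changes of -4.19 and 3.32.

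Cdx1 (ENSMUSG00000024619, chr18:61018862-61036199), a caudal-type homeobox factor of the posterior body axis and intestine, had 371 and 618 counts in WT and 14 and 16 in KO. In CPM it had 39.4 and 67.2 in WT and 1.68 and 1.90 in KO. The KO libraries were close to each other and far below both WT libraries, a mean 29.9-fold lower, with a log2 fold change of -4.89, the lowest of the 10 except without KO library B, where Sp5 was at -4.99 and Cdx1 at -4.80. Its paralogs were nearly silent, with 1, 4, 5 and 1 counts for Cdx2 and 1, 0, 2 and 2 for Cdx4 in WT 1, WT 2, KO B and KO F, and neither was tested. Tnfrsf19 (ENSMUSG00000060548, chr14:60963834-61046855), a member of the tumour necrosis factor receptor family also called TROY, had 33.7 and 29.5 CPM in WT and 10.5 and 9.83 CPM in KO. Its KO libraries lay below its WT libraries, a mean 3.10-fold lower.

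**Figure D1:**
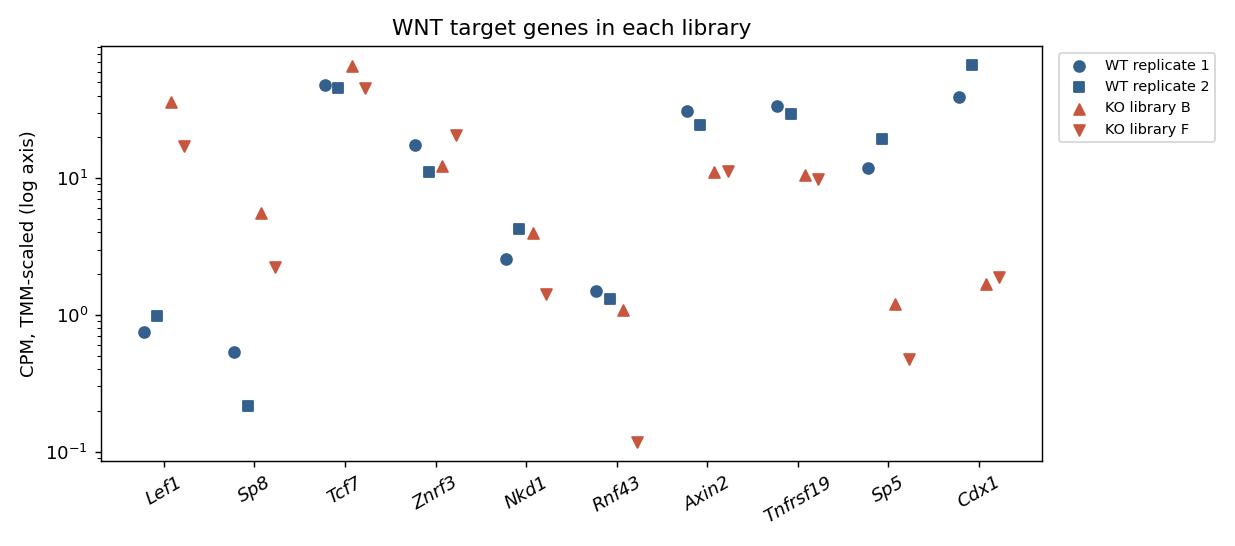
TMM-scaled CPM (log axis) of the 10 genes in each of the 4 RNA libraries, ordered by fold change, with 1 point per library. Lef1 and Sp8 are higher in both KO libraries, Axin2, Tnfrsf19, Sp5 and Cdx1 are lower in both, and the points of Tcf7, Znrf3 and Nkd1 interleave.

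The plot of CPM by library shows the split. KO libraries lay above both WT libraries for 2 members and below them for 5, and overlapped for 3, beside 26.0% of all 15517 tested genes above, 27.5% below and so 53.5% not overlapping. At a false discovery rate (FDR) of 0.05 in edgeR's quasi-likelihood test over all genes, 2.96% of tested genes were called higher and 5.34% lower, 8.30% in either direction. The members stand in that fit too, with 2 called higher and 4 lower, but they were picked on this contrast, which fixes such counts, and nothing is read from them. All 10 passed the filter on low counts, Lef1 and Sp8 through the KO libraries where they are high. The median log2 fold change of all tested genes was -0.001.

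The members also differed between the KO libraries, a comparison that did not choose them. Library B was at least 2 times library F for 5 of the 10, namely Lef1, Sp5, Sp8, Nkd1 and Rnf43. The same held for 5.07% of all tested genes and for 7.76% of the 8799 genes with 10 to 500 counts summed over the KO pair. Counts for Sp5, Sp8, Nkd1 and Rnf43 were as low as 4, 19, 12 and 1 in library F, low in that range, where counting error is wide. In the other direction the largest ratio of F to B among the members was 1.66, for Znrf3. The share of all genes with F at least 2 times B was not computed. The median absolute log2 ratio of F to B was 0.87 over the members and 0.33 over all tested genes, and that of WT 2 to WT 1 was 0.50 and 0.42. Library B was higher for 7 members and library F for 3. The KO libraries were close to each other for Axin2, Tnfrsf19 and Cdx1. They were uneven for Lef1 and Sp8, at 2.11 and 2.45 times as much in B as in F.

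The rest of the pathway was read from fixed lists of ligands, receptors, inhibitors, transducers, nuclear partners and other targets, 103 genes in all, of which 102 were in the files, 67 were tested and 7 had no count in any library. Of the tested genes 7 rose and 3 fell in KO by edgeR's quasi-likelihood test with Benjamini-Hochberg adjustment over all tested genes. That is 14.9% of the 67 against 8.30% of all genes, with a median log2 fold change of 0.04 against -0.001. Of the genes that rose, Wnt5a, Rspo1 and Ccnd2 passed the low-count filter only through the KO libraries, so the balance of directions depends in part on it. These lists were drawn up with earlier results of these data known, and no list test was made.

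At the source of the signal 3 of 7 tested genes rose and none fell. Of those that rose, Wnt5a and Rspo1 passed the low-count filter only through the KO libraries, where they are high. Among the genes it removed, Wnt3a had 10 and 10 counts in WT and 0 and 3 in KO. Wnt8a, removed too, had 0 and 0 in WT and 10 and 4 in KO. The split in direction thus depends in part on the filter. Porcn, the acyltransferase that makes WNT proteins competent for secretion, rose from 61 and 98 counts in WT to 469 and 381 in KO. That is 5.91-fold, a log2 fold change of 2.56 ± 0.34 (SE, 2 against 2 libraries, edgeR FDR = 0.00568). Wnt5a, a ligand known mostly for beta-catenin-independent signalling, had 0 counts in both WT libraries and 10 and 17 in KO (edgeR FDR = 0.0221). It was at least 9.96-fold higher against a floor of 3 counts over both WT libraries together. It did not pass the low-count filter without KO library F. Rspo1, a secreted R-spondin that protects Frizzled from Rnf43 and Znrf3, rose from 9 and 8 counts to 36 and 32 (log2 fold change 2.13 ± 0.53, edgeR FDR = 0.0444). The Rspo1 call is lost when any 1 library is left out (FDR 0.0712 to 0.148), and in DESeq2 (0.0643) and limma voom (0.0505). Wls, which carries WNT proteins to the cell surface, had 207 and 171 counts in WT and 79 and 69 in KO and missed the threshold (edgeR FDR = 0.0579), which it passed in DESeq2 (0.0377) and without WT replicate 2 (0.0377).

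Receptors gave 1 gene in each direction out of 14 tested. Fzd7, a Frizzled receptor abundant in ESCs, rose from 498 and 312 counts to 1322 and 1303, a log2 fold change of 1.85 ± 0.28 (SE, edgeR FDR = 0.00934). Fzd10 fell from 526 and 341 counts to 35 and 52, a log2 fold change of -3.16 ± 0.37 (edgeR FDR = 0.00376). The 2 Frizzled genes thus separated in direction with no overlap of libraries. Lgr4, an R-spondin receptor, and Ror2, a Wnt5a receptor, had log2 fold changes of 1.13 and -0.81 and missed the threshold (edgeR FDR = 0.0836 and 0.101). Lgr4 passed it in DESeq2 (0.0305) and when WT replicate 1 (0.00485) or KO library B (0.0416) was left out.

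Among 9 tested inhibitors only Sfrp1, a secreted protein that binds WNT ligands, passed the test. It fell from 1528 and 1239 counts to 337 and 283, 4.02-fold lower with a log2 fold change of -2.01 ± 0.25 (SE, edgeR FDR = 0.00467). Apcdd1, Dkk3 and Sfrp5, other inhibitors, had log2 fold changes of -1.06, -0.67 and 1.03 (edgeR FDR = 0.123, 0.3 and 0.342). Wif1, another secreted WNT-binding inhibitor, had 21 and 11 counts in WT and 0 in both KO libraries. It was at least 9.59-fold lower against a floor of 3 counts over both KO libraries together. The low-count filter removed it, so it was not tested in the main fit. It was tested, and called lower, when WT replicate 2, KO library B or KO library F was left out.

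None of the 15 cytoplasmic transducers passed the test, at log2 fold changes between -0.40 and 0.63. Ctnnb1, which encodes beta-catenin, had 6978 and 4438 counts in WT and 5002 and 6716 in KO, overlapping groups with a log2 fold change of 0.19 and a 95% interval from -0.51 to 0.88 (edgeR FDR = 0.755). Axin1, the constitutive relative of Axin2, had 711 and 673 counts in WT and 699 and 757 in KO (log2 fold change 0.22, edgeR FDR = 0.607). The lowest p values of the list belonged to Csnk1e, a casein kinase, Tnks2 and Tnks, tankyrases that destabilise Axin, and Amer1, which tethers the complex to the membrane. Their log2 fold changes were -0.40, 0.52, 0.45 and 0.63 (edgeR FDR = 0.345, 0.358, 0.494 and 0.486), and only without WT replicate 1 did Tnks2 and Tnks pass (0.0307 and 0.0209).

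None of the 11 tested nuclear partners passed either, although several were close to the threshold. Tcf7l1, the TCF factor that represses naive-state genes in ESCs, had 1024 and 1074 counts in WT and 510 and 595 in KO (log2 fold change -0.78, edgeR FDR = 0.0822). Tcf7l2, its relative, had 133 and 155 counts in WT and 50 and 62 in KO (log2 fold change -1.22, edgeR FDR = 0.0705). Both passed without WT replicate 1 (0.047 and 0.0465), and for both the KO libraries lay below the WT libraries. Tle1 and Tle4, Groucho co-repressors that bind TCF factors, had log2 fold changes of 1.07 and 1.31 (edgeR FDR = 0.0505 and 0.0532). They passed in DESeq2 (0.0166 and 0.00539) and without WT replicate 1 (0.0357 and 0.00102). Tle1 also passed with RLE scaling (0.0488), and Tle4 when WT replicate 2 (0.0343) or KO library B (0.00928) was left out.

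Other WNT targets also changed in both directions, 3 rising and 1 falling of 11 tested. Ccnd2, the cyclin D2 gene, had 4 and 3 counts in WT and 79 and 76 in KO, a log2 fold change of 4.57 ± 0.53 (SE, edgeR FDR = 0.00379). Ccnd2 passed the low-count filter only through the KO libraries. These were even, unlike those of Lef1 and Sp8. Myc had 14 and 24 counts in WT and 126 and 296 in KO (log2 fold change 3.61 ± 0.53, edgeR FDR = 0.0082). Mycn, its relative, went from 649 and 530 counts to 1426 and 1410 (log2 fold change 1.42 ± 0.24, edgeR FDR = 0.0123). For both MYC genes, drivers of growth, every KO library was above every WT library. Jun, a subunit of the AP-1 factor, fell from 118 and 159 counts to 15 and 25 (log2 fold change -2.64 ± 0.43, edgeR FDR = 0.0116). Nkd2, the paralog of Nkd1, had 21 and 28 counts in WT and 21 and 8 in KO (log2 fold change -0.60, edgeR FDR = 0.593).

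**Figure D2:**
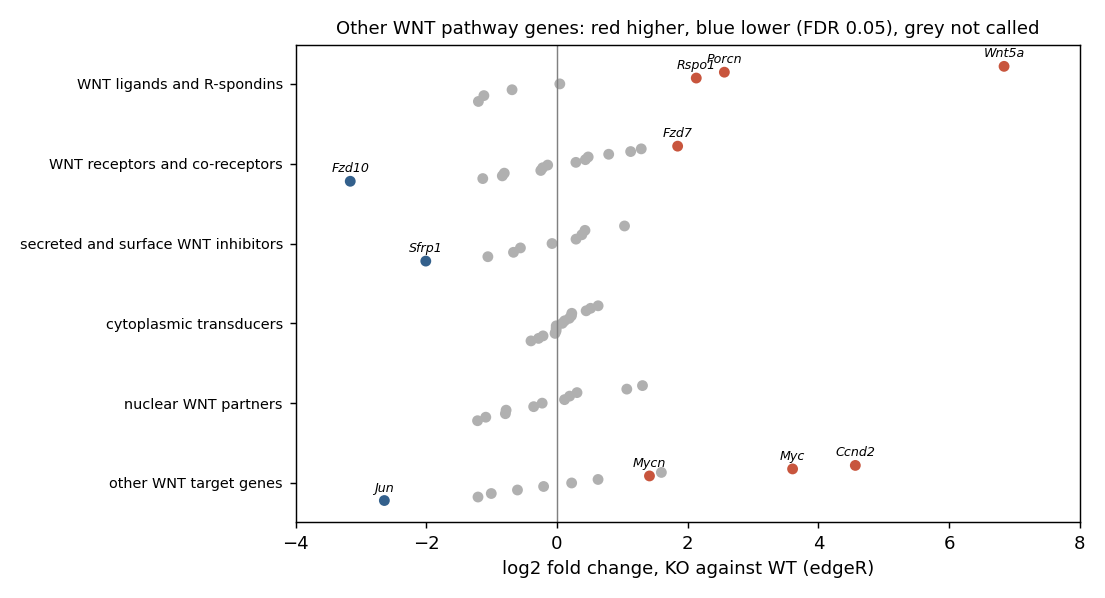
edgeR log2 fold change, KO against WT, of the 67 tested genes of the 6 pathway lists, 1 point per gene, raised slightly by rank within its list. Red genes rose (7) and blue genes fell (3) at FDR 0.05. No transducer or nuclear partner is coloured.

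In the plot of pathway genes by list the calls sit at ligands, receptors, 1 inhibitor and targets. The patterns nearest to the members with the highest and lowest fold change were sought by Euclidean distance of centred log2 CPM over the 4 libraries, as a description. Nearest to Lef1 were Car4, a carbonic anhydrase (1, 2, 152 and 49 counts in WT 1, WT 2, KO B and KO F; distance 0.46), the predicted gene Gm27483 (0.468) and Bnip3, a mitophagy receptor (0.507). Car4 shares the excess of library B over F. Nearest to Cdx1 was Crxos, a homeobox gene, with 565, 929, 22 and 21 counts and a distance of 0.206, followed by Ly6a, a surface antigen (0.508), and Gm11427 (0.537). Crxos shares with Cdx1 the higher WT 2 value and the even KO pair.

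Around 2 members the medians of neighbouring genes lay furthest from 0. Within 2 Mb of Tnfrsf19, 22 other genes were tested, with a median log2 fold change of -0.81. Of these 18 were below 0. The 5 called lower were Fam124a (-3.29), Dleu2 (-1.78), Rnaseh2b (-1.71), Phf11d (-1.63) and Trim13 (-1.44; edgeR FDR = 0.0111, 0.0127, 0.0151, 0.0115 and 0.0201), and none was called higher. All of chromosome 14 lay low, with a median of -0.63 over 466 genes other than Tnfrsf19 and 17.4% called lower, against 2.54% to 7.33% on the other autosomes. The value of Tnfrsf19 itself, -1.63, was below the medians of its window and its chromosome but within the range of its neighbours, and the part of the chromosome-wide shift in it was not tested. The window of Sp8 held only 4 tested genes, all above 0, with a median of 1.58. Rapgef5, a Ras-family exchange factor, and Cdca7l, a Myc-interacting protein, passed the test (log2 fold changes 2.00 and 1.19, edgeR FDR = 0.0263 and 0.0323). Sp4, an SP-family relative of Sp8, and Dnah11, an axonemal dynein, did not (1.96 and 0.76, edgeR FDR = 0.0688 and 0.257). Leaving out KO library B or F brings the median of the Sp8 window to 0.96 or 1.00. With 5 Mb the Sp8 window held 10 genes, 2 of them below 0, with a median of 0.77. The other 8 windows of 2 Mb had medians from -0.26 (Axin2) to 0.34 (Sp5). For Lef1 the median was 0.30 over 21 genes, none called. For Cdx1 it was -0.16 over 30 genes, 1 called lower. Around Sp5, which was lower in KO, the median was 0.34 over 29 genes, 3 of them called higher and none lower.

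**Figure D3:**
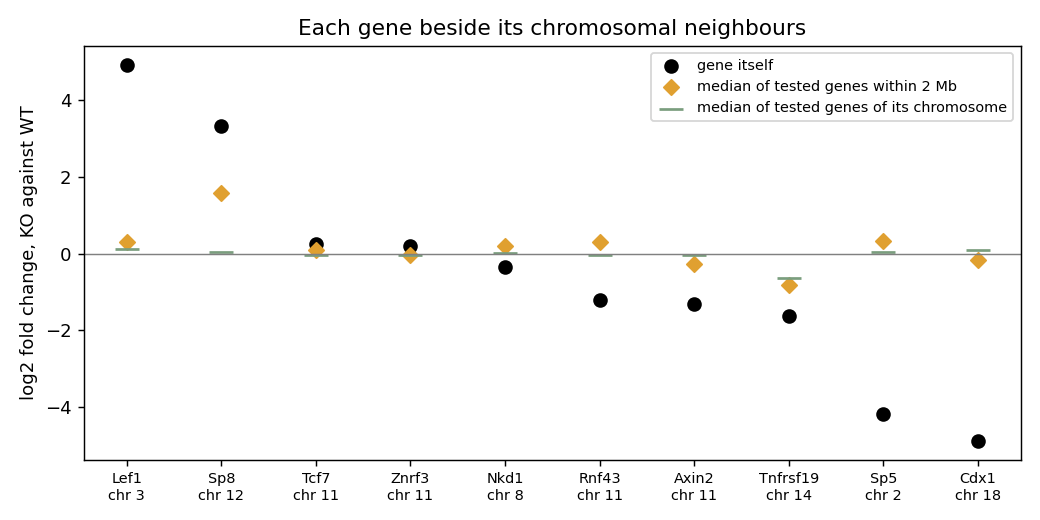
Log2 fold change, KO against WT, of each of the 10 genes (black) beside the median of other tested genes within 2 Mb (diamond) and on its chromosome (bar). Medians lie within 0.34 of 0 for 8 genes, and stand at 1.58 around Sp8 and -0.81 around Tnfrsf19.

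The plot of each gene beside its neighbours sets Lef1 (4.93) and Cdx1 (-4.89) beside 2 Mb medians of 0.30 and -0.16, of the same signs. Sp5 (-4.19) stands beside a median of 0.34, of the other sign. Reads of overlapping genes cannot be told apart where strand was not used, and no source used here gives the strand setting. In the RefSeq gene spans, 4 members overlap another gene. These are Cdx1 (Gm52351), Tcf7 (Skp1), Tnfrsf19 (the long non-coding RNA Gm41167) and Rnf43 (1110028F11Rik and a pseudogene).

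Pol II HiChIP was a separate readout that did not choose the members. The WT pool listed 19914 anchor pairs with 35189 paired-end tags (PETs) on 8373 anchors covering 19.0 Mb. The KO pool listed 118475 pairs with 401726 PETs on 18293 anchors covering 67.0 Mb. Mean PETs per pair were 1.77 and 3.39. With 1 pool per genotype no test was possible, intervals are exact Poisson 95% limits for counting error only, and PETs are PCR reads without molecular identifiers. PETs touching a member summed to 3 in the WT pool, 1 at Nkd1 and 2 at Znrf3, while the other 8 had 0. In the WT pool 3 PETs, the floor used for a count of 0, are 85.3 PPM (PETs per 1000000 PETs of the pool), and the exact Poisson upper limit for 0 is 105 PPM. Over all 14136 tested genes with a position, 51.2% had WT PETs and the median was 1, against 0 over the members. In the KO pool 6 members had PETs, 155 in all, beside 73.3% of all these genes. The median was 4 PETs over the members and 12 over all genes.

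Tnfrsf19 carried 91 of the 155 KO PETs, and its RNA was the one described above as 3.10-fold lower in KO. They formed 41 pairs on 5 anchors covering 18651 bp, a share of 227 PPM (182 to 278) and a mean of 2.22 PETs per pair. At that share the WT pool would hold 7.97 PETs, and it held 0 and listed no anchor over the gene. Anchors were listed separately in each pool and cover more of the genome in KO, so no fold is given. By KO PETs Tnfrsf19 stood at the 88.8 percentile of tested genes. Within 2 Mb the pools were closer, at 853 PPM in WT and 1160 in KO, and chromosome 14 held 1.97% of WT and 2.71% of KO PETs. Of the 91 PETs 30 joined an anchor to itself, 33 joined 2 anchors of the gene and 28 led outward, each outward pair with 1 PET. The anchors lay at the upstream start (39 PETs), at the internal start (15) and at 3 sites inside the gene, 55.7 to 72.1 kb downstream of the upstream start. The upstream start anchor shared 8 PETs with the internal start, and the 3 downstream anchors shared 6 and 9 PETs with each other in turn. Long arcs from the upstream start anchor to the downstream anchors held 2, 4 and 2 PETs. Both start sites printed above were thus inside KO anchors.

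**Figure D4:**
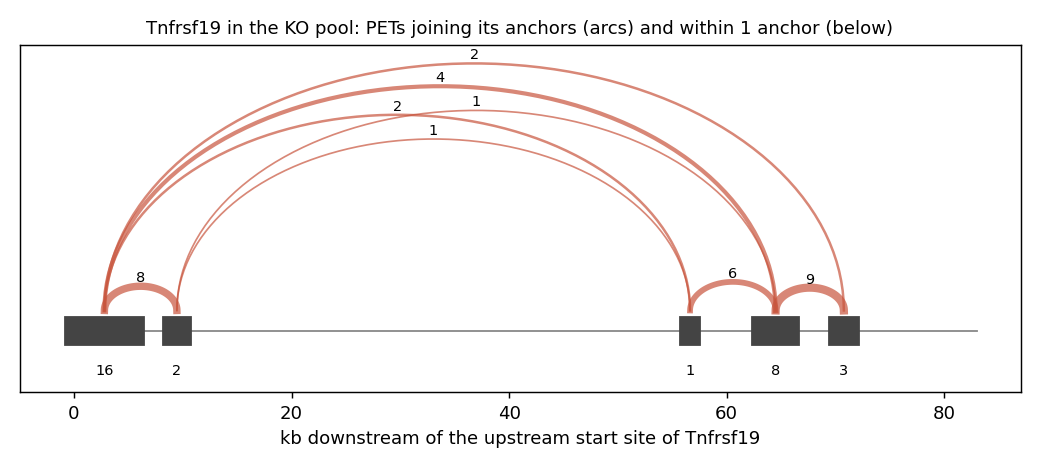
The 5 KO anchors of Tnfrsf19 (boxes) by distance in kb downstream of its upstream start, with PETs that join 2 anchors as arcs and PETs within 1 anchor below each box. The strongest arcs, with 9, 8 and 6 PETs, join neighbouring anchors.

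The arc plot of Tnfrsf19 covers 63 of its PETs and leaves out the outward ones. Tcf7 had 24 KO PETs (59.7 PPM, 38.3 to 88.9) on 2 anchors, 8 of them at its start sites. Its strongest pair, with 4 PETs over 98.1 kb, joined an anchor inside the gene to the start of Vdac1, a mitochondrial channel gene. Axin2 had 19 KO PETs (47.3 PPM, 28.5 to 73.9), all on 1 anchor of 4918 bp over the start printed above, and no outward pair had more than 2 PETs. Cdx1 had 13 KO PETs (32.4 PPM, 17.2 to 55.3), 4 of them with an anchor inside Tcof1 at 213 kb. Sp8 had 3 KO PETs, 2 of them to a site 8.95 kb away. Sp5, Lef1, Rnf43 and Nkd1 had 0 in KO, where 3 PETs are 7.47 PPM and the exact Poisson upper limit for 0 is 9.18 PPM. At the KO shares of Tcf7, Axin2 and Cdx1 the WT pool would hold 2.1, 1.66 and 1.14 PETs, so a difference from WT was not detectable at this depth. Znrf3 had 2 WT and 5 KO PETs, a KO share 0.219 times that of WT with an interval from 0.0359 to 2.3. Rnf43 gained 4 WT and 12 KO PETs when its span was widened by 5 kb on each side.

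**Figure D5:**
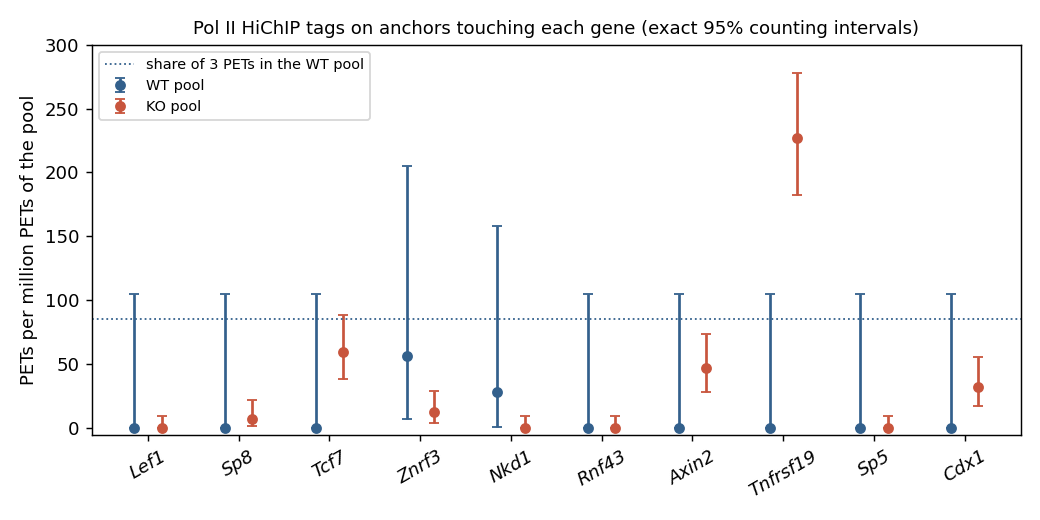
Share of the PETs of each pool that touch each gene, in PPM, WT blue and KO red, with exact Poisson 95% intervals for counting error. The dotted line is the share that 3 PETs have in the WT pool, 85.3 PPM, and only the KO value of Tnfrsf19, 227, lies above it.

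The plot of PET shares holds contact values only, and RNA values of the members are set beside them here. Lef1, 31.0-fold higher in KO RNA, had no KO PET, and Sp8, 10.4-fold higher, had 3. Axin2, Cdx1 and Tnfrsf19, all lower in KO RNA, had 19, 13 and 91 KO PETs, and Sp5, lower too, had 0. Of 71 KO pairs that led out of a member 43 spanned over 1 Mb and 10 had more than 1 PET. For 30 the partner anchor lay within 2000 bp of a listed start of another gene. No Cdx1 partner had a listed start, so the last count may be too low. The shares of all KO pairs beside these counts were not computed.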

How the data were processed

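RNA was sequenced from 2 WT and 2 KO cultures of E14 cells, and Pol II HiChIP is used as 1 pool per genotype. Per the submitters' processing notes the build was mm10 and the tools included HiC-Pro 2.11.4, HTSeq 0.9.1, HISAT2 2.1.0 and, in version 1.18.1, DESeq2. The deposited RNA files hold raw counts per Ensembl gene. Records not assigned to a gene, 64.0% to 65.5% of each library, were left out. The deposited pair lists hold counts of paired-end tags (PETs) for pairs of anchors, pooled by the authors per genotype as read from the files, which hold 1 list each. B and F, the letters that name the KO columns, are kept as library names.

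The 4 libraries were fitted in edgeR 4.0.16 (R 4.3.3): filterByExpr, TMM, genotype as the only term, quasi-likelihood F test, Benjamini-Hochberg FDR 0.05 over 15517 genes. The common biological coefficient of variation was 0.256. Alternatives were RLE scaling, library totals, DESeq2 1.42.0, limma 3.58.1 voom, other filters and leaving out each library. P values measure only the spread between these libraries. A PET touched a gene if an anchor overlapped its RefSeq span by 1 bp, and a start site if within 2000 bp. Symbols were found for 52403 ids.

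The members and lists were chosen with earlier results of these data known. Named were all members, Klf4, Ctnnb1, paralogs, up to 4 tested genes per list with the lowest p, the 3 nearest patterns and the strongest PET partners. Genes near Sp8 and Tnfrsf19, overlapping genes, Wif1, Wnt3a, Wnt8a, Gata4, Thy1, Col1a1, Fbn1 and marker genes that passed the test were named after their values were seen.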

Additional observations from a re-analysis of the deposited data

How the results depend on the processing

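With 2 libraries per genotype, calls depended on having a filter and on single libraries. A filter of a mean of at least 1 CPM gave 445 genes higher and 799 lower, and 6 and 3 pathway genes. Without a filter beyond 1 count, edgeR called 1 gene higher and 1 lower in place of 460 and 828 (4021 had an unadjusted p under 0.05), and 0 and 0 pathway genes in place of 7 and 3. Leaving out 1 library gave 387 to 1151 genes higher and 618 to 1366 lower, and 5 to 12 pathway genes higher and 4 to 6 lower, with the most calls for 3 of these 4 counts without WT replicate 1. Of the 10 pathway calls, 8 were kept without KO library F and 9 without each other library. DESeq2 kept 9 and called 10 higher and 4 lower. Members called ranged from 0 to 2 higher and from 0 to 4 lower. Signs reversed without WT replicate 2 for Nkd1, Znrf3, Tnks and Ctnnb1, without KO library F for Nkd1, Znrf3, Amer1 and Ctnnb1, and without KO library B for Tcf7. Over the fits without 1 library, log2 fold changes ran from -1.243 to 0.227 for Nkd1, -0.201 to 0.572 for Znrf3, -0.029 to 0.492 for Tcf7, -0.013 to 1.049 for Tnks, -0.169 to 1.197 for Amer1 and -0.121 to 0.524 for Ctnnb1. Rnf43 stood at -3.42 without KO library B. Lef1, Sp8, Axin2, Tnfrsf19, Sp5, Cdx1 and Rnf43 kept their sign in every fit that tested them. The median of the 10 window medians was 0.143, 0.059 to 0.199 with 1 library left out and 0.058 with 5 Mb windows. PETs at the members fell from 3 to 0 in the WT pool and from 155 to 89 in the KO pool in pairs of at least 2 PETs, and to 0 in WT when 50% of an anchor had to overlap. The cause of these changes was not tested. No paired analysis was possible because the KO columns carry letters and no replicate numbers. The WT pool, with 35189 PETs, limits every contact comparison.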
